A study of Mus musculus with 32 samples.

Results

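Cytochrome P450 genes were followed in 32 mouse livers, taken at 0 h or at 20 to 40 h after partial hepatectomy, with and without deletion of the ribosomal protein gene Rps6. A gene was a member when the array had a probe set annotated to that gene alone and its symbol read Cyp followed by a family number, a letter and a gene number. Cyp7a1, Cyp7b1, Cyp8b1, Cyp27a1, Cyp4a10 and Cyp4a14 were left out. The rule found 39 probe sets of 33 genes in 20 subfamilies, out of 8251 genes with a probe set of their own. Each gene was read from its probe set with the highest mean over the 32 arrays, and 6 genes had more than 1. A further 7 P450 probe sets were annotated to several genes and name none here. Members with dim signal were not tested, which left 27 genes of 17 subfamilies. The 6 dim genes were Cyp1b1, Cyp24a1, Cyp2b13, Cyp2j5, Cyp2j6 and Cyp3a16, which lay above their array's 30th percentile on 0 arrays.

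P450 enzymes are heme proteins that insert an oxygen atom into small molecules, using electrons passed on by reductases and, for some reactions, by cytochrome b5. In liver the Cyp1, Cyp2 and Cyp3 families oxidise drugs and other foreign compounds, the Cyp4 family acts mostly on fatty acids and related lipids, and other families make or break down steroids, retinoids and vitamin D. Hepatocytes are their main site in liver, and many of the genes are transcribed mainly near the central vein under receptors such as CAR, PXR and AHR.

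All mice were male C57BL/6, aged 3 months and homozygous for a floxed Rps6 allele. Cre plus mice also carried Cre recombinase under the interferon-responsive Mx promoter, which was induced with the double-stranded RNA polyinosinic-polycytidylic acid. Cre minus mice lacked the transgene, and the sources used here do not state whether they received the injection. Livers were taken at 0, 20, 30 and 40 h after surgery, with 4 livers in 6 of the 8 groups. The Cre plus groups of 30 and 40 h held 3 and 5. The Mx promoter is not specific to hepatocytes, no livers of sham-operated mice were analysed here, and the labels do not say that every array came from a separate mouse. If some did not, the p-values measure a spread that is partly technical.

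The Rps6 probe set, shared with the pseudogene Rps6-ps4, read 10.99 to 11.82 in Cre minus and 6.24 to 7.69 in Cre plus livers on the log2 scale. Of 13 hepatocyte markers 11 were tested, and their mean lay between 11.96 and 12.31 on every array. That mean hides single markers that moved in opposite directions. Against 0 h, Ttr fell in Cre minus at 20 and 30 h and in Cre plus at 30 and 40 h. Its differences were -1.25 to -1.64. Fgb rose by 0.57 to 0.69 at 20 and 30 h in both genotypes and at 40 h in Cre plus. Apoa2 fell in Cre plus at 30 and 40 h (-0.40 and -0.38). All of these were called. Between genotypes Ttr was called at 40 h, lower in Cre plus (-1.24). Arrays Cre minus 30 h C, Cre plus 30 h A and Cre plus 40 h D correlated at 0.945, 0.949 and 0.943 with the others of their groups, the lowest values, and calls of the members that are lost without them are named. The labels name a batch, PHX2 or PHX3, for each array. Both occurred in each group, although Cre minus at 40 h had only 1 PHX2 array and Cre plus at 30 h only 1 from PHX3.

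The sequences upstream of 3 members are shown because these genes moved most during regrowth, Cyp2b10 upward and Cyp2f2 and Cyp2c70 downward. Each is the 250 bases before the gene's start in RefSeq's GRCm38.p6 annotation, written 5′ to 3′ along the gene. Capitals mark matches, on either strand, to the TATA box (TATAAA), a nuclear receptor half-site (AGGTCA), the AHR core (GCGTG) and a C/EBP-like site (TTGCNNAA). The HNF1 half-site (GTTAAT) and the FOXA site (TGTTTAC) were searched as well. The windows are chr7:25897408-25897657 on the plus strand, chr7:27119705-27119954 on the plus strand and chr19:40187287-40187536 on the minus strand.
Cyp2b10: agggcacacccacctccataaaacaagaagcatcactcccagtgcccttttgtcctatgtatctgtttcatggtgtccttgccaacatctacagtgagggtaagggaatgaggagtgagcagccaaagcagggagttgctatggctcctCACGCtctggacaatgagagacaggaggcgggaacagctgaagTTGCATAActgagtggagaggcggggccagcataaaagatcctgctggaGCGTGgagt
Cyp2f2: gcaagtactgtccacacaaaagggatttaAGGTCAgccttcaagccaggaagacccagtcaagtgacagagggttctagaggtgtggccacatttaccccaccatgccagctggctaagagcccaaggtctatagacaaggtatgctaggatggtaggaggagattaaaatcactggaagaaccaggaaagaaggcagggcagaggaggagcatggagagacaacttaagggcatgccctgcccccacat
Cyp2c70: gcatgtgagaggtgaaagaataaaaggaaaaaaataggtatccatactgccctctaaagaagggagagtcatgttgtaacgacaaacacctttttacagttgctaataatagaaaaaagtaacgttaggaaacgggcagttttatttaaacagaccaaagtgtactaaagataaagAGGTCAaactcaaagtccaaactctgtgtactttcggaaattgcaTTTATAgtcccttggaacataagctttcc

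Promoter windows matched 30 of the 33 members. A member was counted when any of its windows held the motif, whereas the shares of all windows count each window. Cyp11a1, Cyp2c39 and Cyp3a25 had 2 windows each. TATAAA was found in 13 of the 30 and in 12.4% of all 32851 windows of this length, AGGTCA in 11 of the 30 and in 14% of all windows, and TTGCNNAA in 6 and in 9.56%. TGTTTAC was found in 5 members and in 3.17% of all windows, GCGTG in 4 and in 28.2%, and GTTAAT in 1 and in 6.43%. Cyp2b10 held GCGTG at positions -101 and -9 and TTGCNNAA at -58, counted from the gene's start. Cyp2c70 held AGGTCA at -74 and TATAAA at -29, and Cyp2f2 held AGGTCA at -221. Cyp2b10 and Cyp2f2 lie on chromosome 7 with 6 other members, in the order Cyp2s1, Cyp2b10, Cyp2b13, Cyp2b9, Cyp2b19, Cyp2a12, Cyp2f2 and Cyp2e1. The 4 Cyp2c members are on chromosome 19.

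During regrowth most P450 calls were downward, and the largest called rise was that of Cyp2b10. Of the 27 tested members, 13 were called in at least 1 of the 6 comparisons of a later time with 0 h, and 14 in none. The 34 calls were 4 upward and 30 downward. Over all probe sets, too, more were called lower than higher in each comparison, 2.13% to 6.34% beside 1.01% to 3.59%. The share of all probe sets called in at least 1 of the 6 comparisons was not counted. A call is an adjusted p under 0.05 from limma over 9249 probe sets, and differences are on the log2 scale, later time minus 0 h. Cyp2f2 was called in all 6 comparisons, Cyp4f13 in 5 and Cyp4b1 in 4. Cyp2b10, Cyp2c38, Cyp2c70 and Cyp2d26 were called in 3 each, Cyp2c29 in 2, and Cyp1a1, Cyp1a2, Cyp2d9, Cyp2d10 and Cyp2e1 in 1 each. In whole liver, fewer cells of a type and less RNA per cell cannot be told apart.

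In Cre minus livers 1 member rose and 6 fell at 20 h, where 3.33% of all probe sets rose and 4.04% fell. At 30 h 0 rose and 4 fell, against 1.01% and 2.13% of all probe sets, and at 40 h 0 rose and 5 fell, against 2.32% and 2.44%. The median member differed from 0 h by -0.28, -0.14 and -0.08 at 20, 30 and 40 h, beside -0.03, -0.01 and 0.00 for all probe sets. Leaving out array 0 h A or 30 h B lowered the 30 h count from 4 to 2. At 40 h the count was 3 without any one of the 0 h arrays or of 40 h B, C and D.

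In Cre plus livers 1 member rose and 3 fell at 20 h, against 3.55% and 5.52% of all probe sets. At 30 h 2 rose and 5 fell, against 3.56% and 6.34%, and at 40 h 0 rose and 7 fell, against 3.59% and 6.07%. The median member differed from 0 h by -0.14, -0.30 and -0.28 at 20, 30 and 40 h, beside -0.02, 0.00 and 0.01 for all probe sets. The 20 h count went from 4 to 0 without array 20 h A, and to 2 without 0 h A, 0 h B or 20 h B. At 30 h it went from 7 to 1 without 30 h A or 30 h B, to 2 without 0 h B or 0 h D, to 3 without 0 h A and to 4 without 0 h C or 30 h C. The 40 h count went from 7 to 2 without 0 h B and to 4 without 40 h B. Without the 3 low-correlation arrays the 30 h count was 1, that of Cyp1a1. Both genotypes' comparisons were made against their own 0 h livers.

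Markers of other cells also changed with time. Of 12 tested Kupffer cell markers 1, 1 and 1 fell at 20, 30 and 40 h in Cre minus and 6, 2 and 7 in Cre plus livers, and 0 rose. Of 7 tested endothelial markers 2, 0 and 1 fell in Cre minus and 2, 2 and 3 in Cre plus livers. Over these comparisons 2.13% to 6.34% of all probe sets fell and 1.01% to 3.59% rose. Only the hemoglobin genes Hba-a1 and Hbb-b2, of 4 tested erythroid markers, were called. They rose in Cre minus livers at 40 h, by 2.23 and 2.16. Cela1, the only one called of 4 tested pancreatic markers, was lower at 20 and 30 h in both genotypes and at 40 h in Cre plus (-0.90 to -1.33). S100a8, the only one called of 6 tested neutrophil markers, rose in Cre minus at 20 h (1.09). Krt19, the only one called of 3 tested bile duct markers, rose in Cre plus at 40 h (0.56). The part of these cells in the P450 values was not tested.

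**Figure D1:**
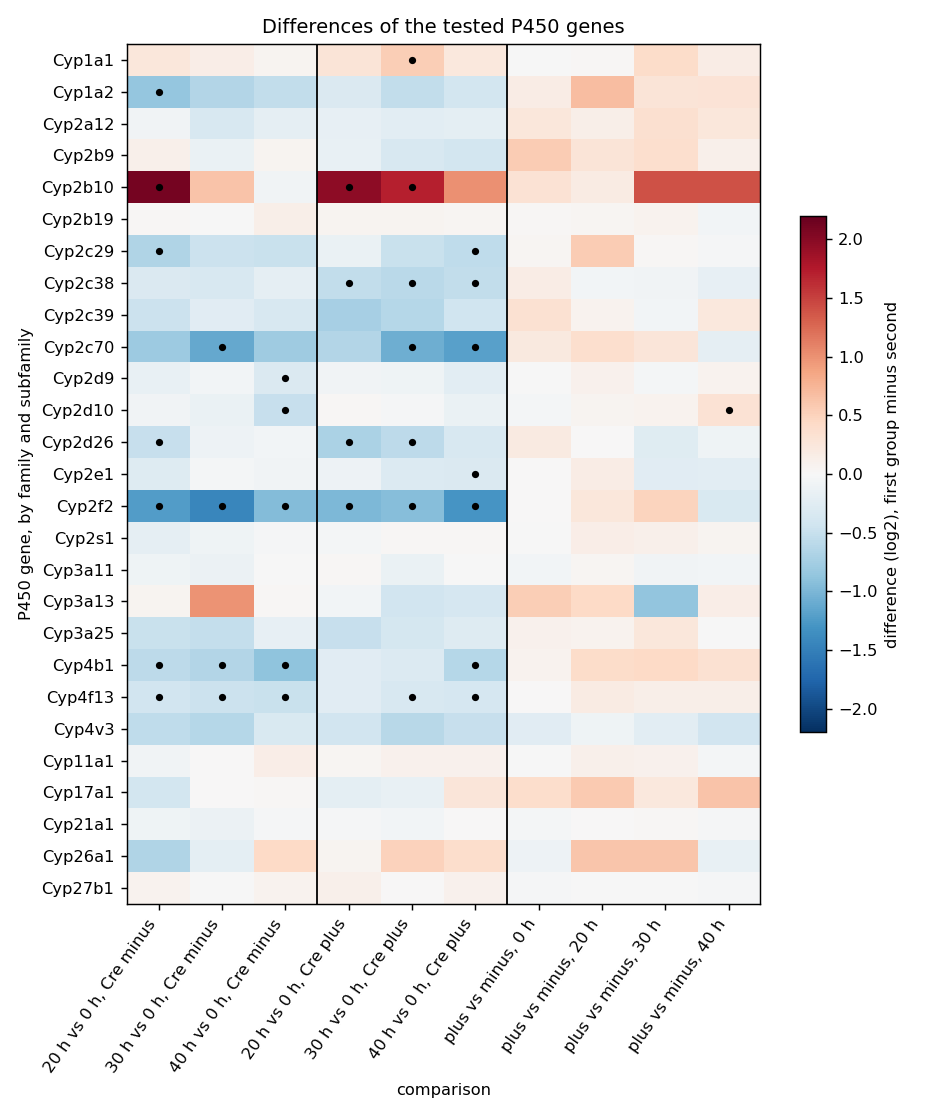
Difference in log2 value (colour) for the 27 tested P450 genes, ordered by family, in 6 comparisons with 0 h and 4 of Cre plus with Cre minus; a dot marks an adjusted p under 0.05. The Cyp2f2 row is blue with a dot in all 6 time comparisons, and Cyp2b10 is red with a dot in 3 of them.

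Cyp2b10, the classical target of the receptor CAR that drugs such as phenobarbital induce, rose at 20 h in both genotypes. Cre minus livers A to D read 8.21, 8.51, 8.17 and 7.90 at 0 h and 8.81, 9.98, 10.9996 and 11.42 at 20 h, with no overlap. The rise was 2.10 (SE 0.50, 4.30-fold, adjusted p = 0.0115), and it was 3.01 within batch PHX2 and 1.20 within PHX3. Cre plus livers read 7.45, 9.13, 9.61 and 7.86 at 0 h and 11.05, 10.60, 9.10 and 11.16 at 20 h, so that 20 h C lay inside the range at 0 h. Their rise was 1.97 (SE 0.50, 3.91-fold, adjusted p = 0.0134). The call in Cre minus livers was lost without array 20 h D (adjusted p = 0.0537), and that in Cre plus livers without 0 h A, 0 h D, 20 h A or 20 h B (adjusted p up to 0.0823). The latter was lost as well with only the groups compared in the fit (adjusted p = 0.0685).

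At 30 h Cre minus livers had 8.09, 8.76, 9.81 and 8.63 for Cyp2b10, a difference from 0 h of 0.62 that was not called (adjusted p = 0.625). Cre plus livers had 10.44, 9.93 and 10.56 at 30 h, all above their 0 h range, and the rise of 1.71 was called (SE 0.54, adjusted p = 0.0423). This call was kept in 2 of the 7 fits that left out an array, those without 0 h B or 0 h C, and without the 3 low-correlation arrays it was lost (1.501, adjusted p = 0.121), as it was with no filter on low values or with only the groups compared. At 40 h Cre minus livers had 8.43, 7.64, 7.85 and 8.05, which overlapped their 0 h values (difference -0.08, adjusted p = 0.964). Cre plus livers had 8.48, 8.90, 9.39, 10.17 and 10.39 at 40 h, a difference of 1.01 from 0 h that was not called (adjusted p = 0.193).

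The other Cyp2b genes did not share the rise. Cyp2b9, which is known as higher in female liver, and Cyp2b19, known from skin, differed from 0 h by -0.40 to 0.12 over the 6 time comparisons and were not called. Cyp2b9 lay near the dim end of the array, above the 30th percentile on 24 of 32 arrays, and Cre plus 0 h C stood at 7.60 beside 4.42 to 4.94 in the other livers of that group. Cyp2b13 was too dim to test, at 4.17 to 4.75.

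Cyp2f2, which metabolises naphthalene and is known as a periportal P450, fell in every comparison with 0 h. At 0 h its values were close together, 11.61, 11.51, 11.45 and 11.62 in Cre minus and 11.57, 11.55, 11.52 and 11.57 in Cre plus livers. In Cre minus livers the 20 h values were 10.22, 10.21, 10.14 and 10.67, the 30 h values 9.76, 9.82, 10.36 and 10.53, and the 40 h values 10.67, 10.44, 10.57 and 10.32. In Cre plus livers the 20 h values were 9.58, 10.54, 11.28 and 10.87, the 30 h values 10.12, 10.90 and 10.997, and the 40 h values 10.19, 9.16, 10.85, 10.93 and 9.95. Every later liver was below every 0 h liver, and the group SD was 0.03 to 0.08 at 0 h and 0.16 to 0.73 later.

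The fall of Cyp2f2 in Cre minus livers at 20, 30 and 40 h measured -1.24, -1.43 and -0.96, with an SE of 0.28 each time and adjusted p of 0.00803, 0.00511 and 0.0435. For Cre plus livers the same series was -0.98, -0.94 and -1.30, with an SE of 0.28, 0.30 and 0.26 and adjusted p of 0.0250, 0.0461 and 0.00283. The calls in Cre minus at 20 and 30 h and in Cre plus at 40 h were kept whichever single array was left out. Those in Cre minus at 40 h and in Cre plus at 30 h were lost without any one array (adjusted p up to 0.163 and 0.195), and that in Cre plus at 20 h without 0 h A, 0 h B, 20 h A or 20 h B. The Cre plus difference at 30 h was -0.72 without the 3 low-correlation arrays (adjusted p = 0.176), and its call was lost too with arrays centred on their median, no batch term or no filter. The Cre plus call at 40 h was lost with only the groups compared (adjusted p = 0.0632). Of 13 tested periportal genes outside the P450 family, 2, 2 and 2 fell at 20, 30 and 40 h in Cre minus and 3, 2 and 3 in Cre plus livers, which is 15.4% to 23.1% beside 2.13% to 6.34% of all probe sets. The genes of this list that rose were Arg1 and Tat, where 1.01% to 3.59% of all probe sets rose. The arginase gene Arg1 rose by 0.45 to 0.59 in 5 of the 6 comparisons. Tat rose in Cre minus at 30 h (0.59) and in Cre plus at 20, 30 and 40 h (0.81 to 1.23). Of the listed genes known from near the central vein, outside the P450 family, only Alas1, Rgn, Glul and Tbx3 were called against 0 h. Among them Alas1 rose in all 6 comparisons. Rgn fell in Cre minus at 20 h and in Cre plus at 30 and 40 h (-0.55 to -0.59). Glul and Tbx3 fell in Cre plus at 30 h (-1.16 and -0.85). No gene of this list was called lower in Cre minus at 30 or 40 h or in Cre plus at 20 h. At these times 2.13%, 2.44% and 5.52% of all probe sets fell.

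**Figure D2:**
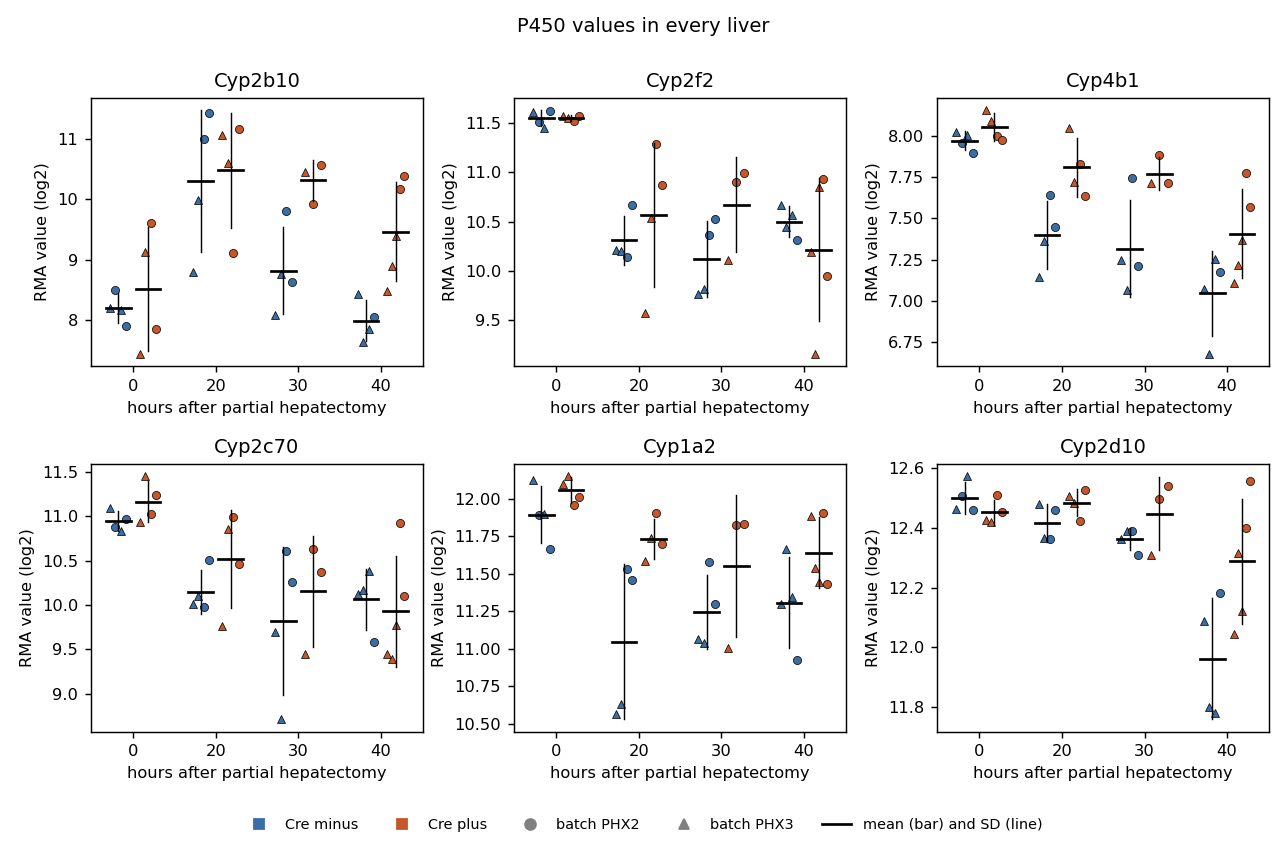
RMA value (log2) against hours after partial hepatectomy for 6 P450 genes; each point is a liver, bars are group means and lines the SD, with 3 to 5 livers a group. Cyp2f2 is at 11.45 to 11.62 in all 8 livers at 0 h and at most 11.28 later, while Cyp2b10 reaches 11.42 at 20 h.

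Cyp4b1, which hydroxylates fatty acids and activates some protoxins, fell at 20, 30 and 40 h in Cre minus livers and at 40 h in Cre plus livers. Cre minus livers had 8.02, 7.95, 8.01 and 7.90 at 0 h and 7.07, 6.68, 7.25 and 7.17 at 40 h. Cre plus livers had 8.15, 8.09, 7.999 and 7.97 at 0 h and 7.11, 7.21, 7.37, 7.77 and 7.57 at 40 h. In both genotypes the 40 h livers lay below all 0 h livers. The Cre minus differences were -0.57, -0.65 and -0.89 in the order of time, with an SE of 0.14 each and adjusted p of 0.0124, 0.0100 and 0.000120. In Cre plus livers the 40 h difference was -0.63 (SE 0.13, adjusted p = 0.00316). All 4 calls were kept whichever array was left out, and the 30 h call was lost with only the groups compared (adjusted p = 0.0693).

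Cyp4f13, of a subfamily that acts on leukotrienes and fatty acids, fell by 0.41, 0.47 and 0.49 at 20, 30 and 40 h in Cre minus livers (adjusted p = 0.0149, 0.0120 and 0.00374). In Cre plus livers it fell by 0.35 at 30 h and by 0.38 at 40 h (adjusted p = 0.0428 and 0.0150). Its range over all livers was 7.41 to 8.37. The Cre plus call at 30 h held under 3 of 10 alternatives, and without the 3 low-correlation arrays the difference was -0.22 (adjusted p = 0.223). Without a batch term the calls in Cre minus at 20 and 30 h were lost (adjusted p = 0.0618 and 0.0574), and with only the groups compared those in Cre minus at 30 h and in Cre plus at 40 h (adjusted p = 0.103 and 0.0601). The gene's dimmer probe set gave -0.28, -0.17 and -0.20 in Cre minus livers and -0.21 and -0.16 in Cre plus livers at 30 and 40 h, none of them called. Cyp4v3, a fatty acid hydroxylase, ranged from 9.48 to 11.10 and was not called in any comparison. Without the 3 low-correlation arrays it was called in Cre minus at 20 and 30 h (-0.56 and -0.74) and in Cre plus at 40 h (-0.57). The Cyp4b1 probe set is of a kind (suffix _f_at) whose probes can match related transcripts.

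The 4 Cyp2c genes, which oxidise drugs, arachidonic acid and, for Cyp2c70, bile acids, all had lower means than at 0 h in each of the 6 comparisons. Their median difference was -0.57, -0.42 and -0.42 in Cre minus and -0.60, -0.61 and -0.54 in Cre plus livers at 20, 30 and 40 h. Not all of these passed the test: 1, 1 and 0 of the 4 fell in Cre minus and 1, 2 and 3 in Cre plus livers. The comparisons within a genotype share their 0 h livers.

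Cyp2c70, the enzyme that makes muricholic acids in mouse liver, gave the largest differences of the subfamily at 30 and 40 h. At 0 h it read 11.09, 10.88, 10.83 and 10.97 in Cre minus and 10.94, 11.46, 11.03 and 11.24 in Cre plus livers. At 30 h it read 9.70, 8.71, 10.61 and 10.26 in Cre minus and 9.45, 10.64 and 10.37 in Cre plus livers. At 40 h Cre plus livers read 9.45, 9.39, 9.78, 10.93 and 10.10, all below their 0 h range. The fall was -1.12 in Cre minus (SE 0.30, adjusted p = 0.0395) and -1.08 in Cre plus livers (SE 0.33, adjusted p = 0.0371) at 30 h, and -1.20 in Cre plus livers at 40 h (SE 0.29, adjusted p = 0.00969).

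The 30 h calls of Cyp2c70 were kept in 2 of 8 fits that left out an array in Cre minus and in 1 of 7 in Cre plus livers. The 40 h call was lost only without Cre plus 0 h B (adjusted p = 0.0543). The 30 h fall was larger within PHX3 than within PHX2, -1.76 beside -0.49 in Cre minus and -1.75 beside -0.63 in Cre plus livers. Without the 3 low-correlation arrays the Cre plus difference at 30 h was -0.76 and was not called (adjusted p = 0.132). Without a batch term neither 30 h call was made (adjusted p = 0.0789 and 0.0819), and with only the groups compared that in Cre minus was lost (adjusted p = 0.119). The Cre minus difference at 20 h, -0.80, was called without the 3 arrays (adjusted p = 0.0472).

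Cyp2c38 fell in Cre plus livers at 20, 30 and 40 h, by 0.54, 0.60 and 0.53 (adjusted p = 0.0355, 0.0331 and 0.0303). Its Cre plus livers read 10.25, 11.06, 10.75 and 10.40 at 0 h and 9.89, 10.03, 10.13 and 10.23 at 20 h, which did not overlap, while the 30 and 40 h values reached 10.35 and 10.30. All 3 calls were lost without Cre plus 0 h B or 0 h C, and each was lost without at least 2 other arrays. Each was also lost with only the groups compared (adjusted p of 0.0815, 0.138 and 0.201), and at 30 h the difference was -0.40 without the 3 low-correlation arrays (adjusted p = 0.204). Without a batch term the 20 and 30 h calls were lost (adjusted p = 0.0598 and 0.0650), and with array weights the 40 h call (adjusted p = 0.0739). Cyp2c29, an arachidonic acid epoxygenase under CAR control, fell by 0.66 in Cre minus livers at 20 h and by 0.55 in Cre plus livers at 40 h (adjusted p = 0.0126 and 0.0211). The first of these calls was kept without any single array, and the second was lost without Cre plus 0 h B or 40 h B, or with only the groups compared (adjusted p = 0.104). Genes of this subfamily are close in sequence, and the Cyp2c38 probe set (suffix _f_at) may also match its relatives.

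Cyp2d26 fell at 20 h in both genotypes and at 30 h in Cre plus livers, and gave no call at 40 h. Cre minus livers had 11.98, 11.84, 11.74 and 11.71 at 0 h and 11.74, 11.38, 10.80 and 11.29 at 20 h. Cre plus livers had 11.88, 12.02, 12.08 and 12.06 at 0 h and 10.96, 11.15, 11.70 and 11.47 at 20 h, with no overlap. The falls were -0.51 in Cre minus at 20 h (adjusted p = 0.0455), -0.69 in Cre plus at 20 h (adjusted p = 0.00739) and -0.57 in Cre plus at 30 h (adjusted p = 0.0330). The Cre minus call was kept only without 20 h A among the 8 fits that left out an array, and the Cre plus call at 30 h only without 0 h A among 7. The Cre plus call at 20 h was lost only without 20 h A (adjusted p = 0.0556). The Cre plus difference at 30 h was -0.47 without the 3 low-correlation arrays and was not called (adjusted p = 0.116). With arrays centred on their median or with no filter the Cre minus call was lost.

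Cyp2d10 and Cyp2d9 were called lower in Cre minus livers at 40 h and in no other comparison with 0 h. In Cre plus livers at 40 h the 3 tested Cyp2d genes were also lower, with differences of -0.15 to -0.35 and no call. The Cre plus means of Cyp2d9 were 8.35 at 0 h and 8.10 at 40 h. The Cyp2d10 values were 12.46, 12.51, 12.57 and 12.46 in the 0 h livers but 12.09, 11.80, 11.78 and 12.18 at 40 h. These groups did not overlap, and the difference was -0.52 (SE 0.09, adjusted p = 0.000345), kept without any single array. Its Cre minus livers at 20 and 30 h read 12.31 to 12.48. Cyp2d9, known as higher in male liver, had 8.41, 8.29, 8.27 and 8.43 at 0 h and 7.96, 8.07, 8.04 and 8.02 at 40 h, a difference of -0.31 (SE 0.09, adjusted p = 0.0440). That call was lost without any one array, with adjusted p from 0.0532 to 0.166, and with quantile normalization (adjusted p = 0.127). The Cyp2d10 probe set (suffix _s_at) may match other Cyp2d transcripts.

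Cyp1a2, which metabolises caffeine and many aromatic amines, fell in Cre minus livers at 20 h. It read 12.13, 11.89, 11.90 and 11.67 at 0 h and 10.57, 10.63, 11.53 and 11.46 at 20 h, with no overlap. The difference was -0.85 (SE 0.20, adjusted p = 0.00985). It was -1.41 within PHX3 and -0.28 within PHX2, and the call was kept whichever array was left out. The related AHR target Cyp1a1 was near the dim end of the array, above the 30th percentile on 22 of 32 arrays. It rose in Cre plus livers at 30 h, from 4.67, 4.78, 4.81 and 4.57 to 4.996, 5.37 and 5.43, a difference of 0.54 (SE 0.12, adjusted p = 0.00731) that was kept without any single array.

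Other drug-oxidising members gave 1 call. Cyp2e1, which oxidises ethanol and paracetamol, fell by 0.32 in Cre plus livers at 40 h (SE 0.09, adjusted p = 0.0269). It read 13.12, 13.09, 13.13 and 13.21 at 0 h and 12.86, 12.78, 12.72, 13.02 and 12.70 at 40 h, with no overlap, and 3 of 9 fits that left out an array kept the call. It was lost with only the groups compared (adjusted p = 0.0843). Cyp3a11, the main drug-oxidising enzyme of the Cyp3a subfamily and a PXR target, stayed between 11.56 and 12.11 over all livers. None of the 3 tested Cyp3a genes was called, although Cyp3a25 differed from 0 h by -0.49 and -0.53 in Cre minus livers at 20 and 30 h. Cyp3a13 gave the largest difference of the subfamily, 0.99 in Cre minus livers at 30 h (SE 0.55, adjusted p = 0.397). Cyp2a12 and Cyp2s1 were not called either.

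P450 genes of steroid, retinoid and vitamin D metabolism gave no call against 0 h. Cyp11a1 and Cyp21a1 make steroid hormones, mainly in the adrenal, and Cyp27b1 activates vitamin D, mainly in kidney. They stayed within 5.31 to 5.98, 7.73 to 8.33 and 5.80 to 6.48. The Cyp21a1 probe set (suffix _s_at) may match other transcripts. Cyp17a1, which makes androgen precursors, ranged from 7.10 to 10.01. Cyp26a1, which clears retinoic acid, ranged from 3.93 to 7.18. Both were scattered within groups.

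Between genotypes the P450 genes gave 1 call. At 0, 20 and 30 h 0 of 27 members were called, against 0.0649%, 0.292% and 0.281% of all probe sets, and limma's unadjusted p was under 0.05 for 1, 3 and 5 members. At 40 h 1 member was called, Cyp2d10, against 5.35% of all probe sets, and 6 had an unadjusted p under 0.05. The genotype by time interaction, which asks whether the change since 0 h differed between genotypes, was called for 0 members at 20, 30 and 40 h, with 1, 1 and 1 members at an unadjusted p under 0.05. It was called for 0%, 0.0108% and 0.584% of all probe sets. At 20 h 24 of the 27 members had the higher mean in Cre plus, with a median difference of 0.14 beside 0.00 for all probe sets.

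Cyp2d10 at 40 h read 12.04, 12.32, 12.12, 12.40 and 12.56 in Cre plus and 12.09, 11.80, 11.78 and 12.18 in Cre minus livers. Its difference, Cre plus minus Cre minus, was 0.31 (SE 0.08, adjusted p = 0.0214), and the groups overlapped. The interaction at 40 h was 0.36 and was not called (SE 0.12, adjusted p = 0.359). The genotype call was lost without any one of Cre minus 40 h B or C and Cre plus 40 h B or E, with adjusted p up to 0.109. Of 10 alternatives 7 kept it, and it was lost with array weights (0.19, adjusted p = 0.140) and with only those groups in the fit (adjusted p = 0.264) among others.

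Among the members Cyp2b10 gave the largest differences between genotypes, none of them called. Cre plus livers were higher by 1.40 at 30 h (SE 0.54, adjusted p = 0.288), and the 40 h difference had the same size, 1.40 (SE 0.47, adjusted p = 0.0922). At both times every Cre plus liver lay above every Cre minus liver. With array weights the 30 h difference was 1.36 and was called (adjusted p = 0.0289). The same weights gave 6 more calls at 30 h, with Cyp1a1, Cyp1a2, Cyp2f2 and Cyp4b1 higher and Cyp2e1 and Cyp3a13 lower in Cre plus. The 40 h difference was 2.23 within PHX2, which had 1 Cre minus array, and 0.95 within PHX3. At 20 h the batches pointed in opposite directions, -1.08 within PHX2 and 1.43 within PHX3. The interaction was 1.09 at 30 h and 1.08 at 40 h and was not called (adjusted p = 0.975 and 0.994).

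At 20 h Cyp1a2 and Cyp2c29 were higher in every Cre plus than in every Cre minus liver, by 0.68 and 0.56, and neither was called (adjusted p = 0.236 and 0.230). Cyp1a2 read 11.58, 11.74, 11.91 and 11.70 in Cre plus livers at that time, and Cyp2c29 read 7.69, 7.81, 7.75 and 7.74 beside 6.87, 6.99, 7.40 and 7.48 in Cre minus livers. Cyp4b1 was higher in Cre plus by 0.41, 0.43 and 0.34 at 20, 30 and 40 h with overlapping groups and no call. Without Cre minus 30 h C its 30 h difference was 0.56 and was called (adjusted p = 0.0343). Without the 3 low-correlation arrays Cyp4b1 and Cyp1a1 were both called at 30 h, at 0.59 and 0.62 (adjusted p = 0.0208 and 0.00802). Kupffer cell markers moved with genotype: the mean of 12 of 14 markers was 7.26 to 7.89 in Cre minus and 6.53 to 7.21 in Cre plus livers at 40 h, and the groups did not overlap at 0, 20 or 30 h either. The mean of 4 of 7 erythroid markers was 8.22 to 8.87 in Cre minus and 6.397 to 7.72 in Cre plus livers at 40 h, and did not overlap at 20 or 30 h. Hba-a1 and Hbb-b2 differed by -2.59 and -2.53 at 20 h and by -3.12 and -3.13 at 40 h, all called. The part of either cell type in the genotype differences was not tested.

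Among the genes that serve P450 enzymes, Alas1, Cyb5b and Cyb5r3 were called in all 6 comparisons with 0 h. Of 19 genes of electron and heme supply or heme breakdown 14 were tested. Alas1, the first enzyme of heme synthesis, rose by 0.87 to 1.23. Cyb5b, a cytochrome b5 of the outer mitochondrial membrane, fell, with differences of -0.95 to -1.56, and the cytochrome b5 reductase gene Cyb5r3 fell too, with differences of -0.58 to -0.90. In all, 1, 1 and 1 of the 14 rose and 4, 2 and 2 fell at 20, 30 and 40 h in Cre minus livers, and 1, 3 and 1 rose and 3, 3 and 3 fell in Cre plus livers. That is 7.14% to 21.4% upward and 14.3% to 28.6% downward, where 1.01% to 3.59% of all probe sets rose and 2.13% to 6.34% fell. The rises in Cre plus at 30 h included Hmox1 and Hmox2 (1.14 and 1.12), whose heme oxygenases break down heme. Between genotypes 1 was called, Blvra of heme breakdown, lower in Cre plus at 40 h (-0.28).

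Among 29 tested regulators of P450 genes, 3, 2 and 2 rose and 2, 2 and 1 fell at 20, 30 and 40 h in Cre minus livers, and 2, 4 and 3 rose and 3, 4 and 2 fell in Cre plus livers. The shares that fell at 40 h, 3.45% and 6.9%, were near the 2.44% and 6.07% of all probe sets. All upward shares, and the downward ones at 20 and 30 h, were 6.9% or more. Over the same comparisons 1.01% to 3.59% of all probe sets rose, and at 20 and 30 h 2.13% to 6.34% fell. Cebpb and Cebpd, transcription factors of the acute phase response, rose in all 6 comparisons, by 0.99 to 1.75 and by 1.12 to 2.27. Cebpa, a factor of differentiated hepatocytes, fell in 5 of 6, with differences of -1.01 to -1.27, and the clock repressor Nr1d1 fell in all 6. The receptor genes Nr1i3 (CAR) and Ahr were not called in any comparison, and Nr1i2 (PXR) rose in Cre plus livers at 40 h alone, by 0.52 (adjusted p = 0.04997). No regulator was called between genotypes.

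Among other drug-metabolising enzymes more calls were downward than upward. Of 26 other phase I enzymes 0 rose in any time comparison, and 4, 0 and 1 fell in Cre minus and 3, 4 and 7 in Cre plus livers at 20, 30 and 40 h. The Cre minus shares at 30 and 40 h, 0% and 3.85%, were near the 2.13% and 2.44% of all probe sets that fell, and the others were 11.5% to 26.9% beside 4.04% to 6.34%. The carboxylesterase gene Ces1d, for example, differed by -1.44 in Cre minus at 20 h and by -1.74 in Cre plus at 40 h. Of 28 conjugating enzymes 7, 6 and 1 fell in Cre minus and 5, 2 and 7 in Cre plus livers, and 1 rose each time. At 40 h in Cre minus and 30 h in Cre plus the shares that fell, 3.57% and 7.14%, were near those of all probe sets, 2.44% and 6.34%. The nicotinamide methyltransferase Nnmt was the one that rose, by 1.42 to 2.06, and the glutathione transferase Gsta3 fell by 1.58 to 1.86 in 5 of the 6 comparisons.

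Some P450 genes varied more between livers of a group than nearly all other genes. The residual SD, the spread left after group and batch, was 1.18 for Cyp2c39 on the log2 scale, beside a median of 0.18 over all 9249 probe sets. Of the 27 members 6 lay at or above the 95th percentile of all probe sets: Cyp2c39, Cyp26a1, Cyp3a13, Cyp2b10, Cyp17a1 and Cyp2b9. Cyp2c39, a retinoic acid hydroxylase, read 7.64, 10.99, 10.34 and 7.73 in the Cre plus group at 0 h and 7.41, 6.95, 10.61, 9.16 and 9.50 in that at 40 h. Cyp3a13 read 6.83, 8.45, 9.15 and 6.84 in the same Cre plus livers at 0 h. Livers B and C were thus high in both genes at that time, and also in Cyp2b10 and Cyp17a1. Cyp2d10, Cyp2e1 and Cyp3a11, by contrast, were at percentiles 13, 22.9 and 34.9 of residual SD. Their mean signal was near the top of the array, at percentiles 99.6, 99.8 and 99.2. Cyp2d26 and Cyp1a2, at signal percentiles 99 and 98.9, were at percentiles 68.6 and 80.7 of residual SD. Whether bright signal limited the spread was not tested.

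**Figure D3:**
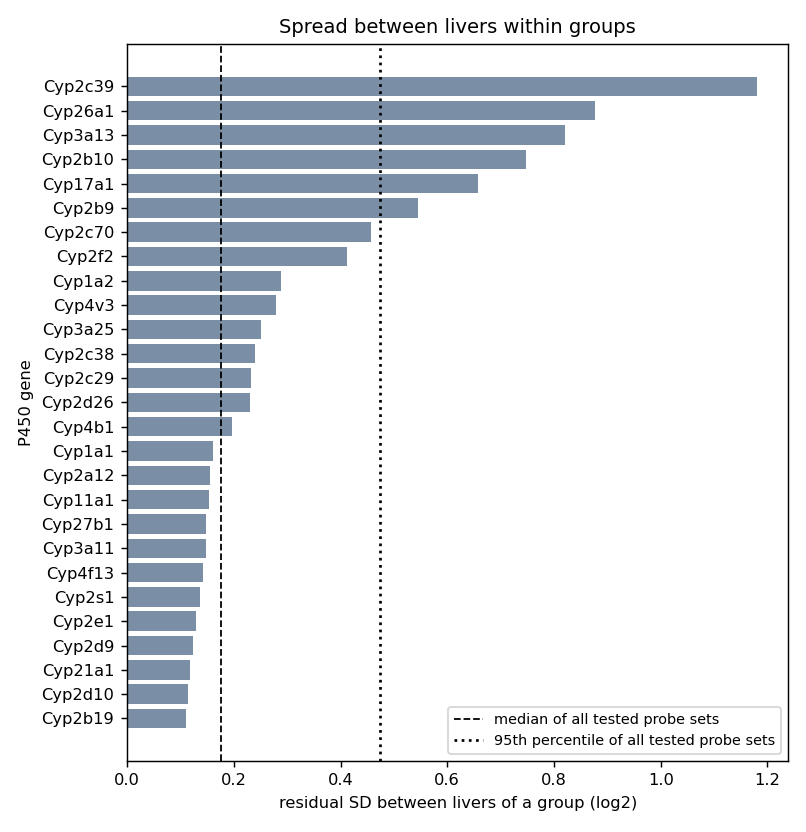
Residual SD between livers of a group (log2) for the 27 tested P450 genes, with the median (dashed) and 95th percentile (dotted) of all 9249 tested probe sets. Cyp2c39 stands highest at 1.18, and 6 genes pass the 95th percentile.

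**Figure D4:**
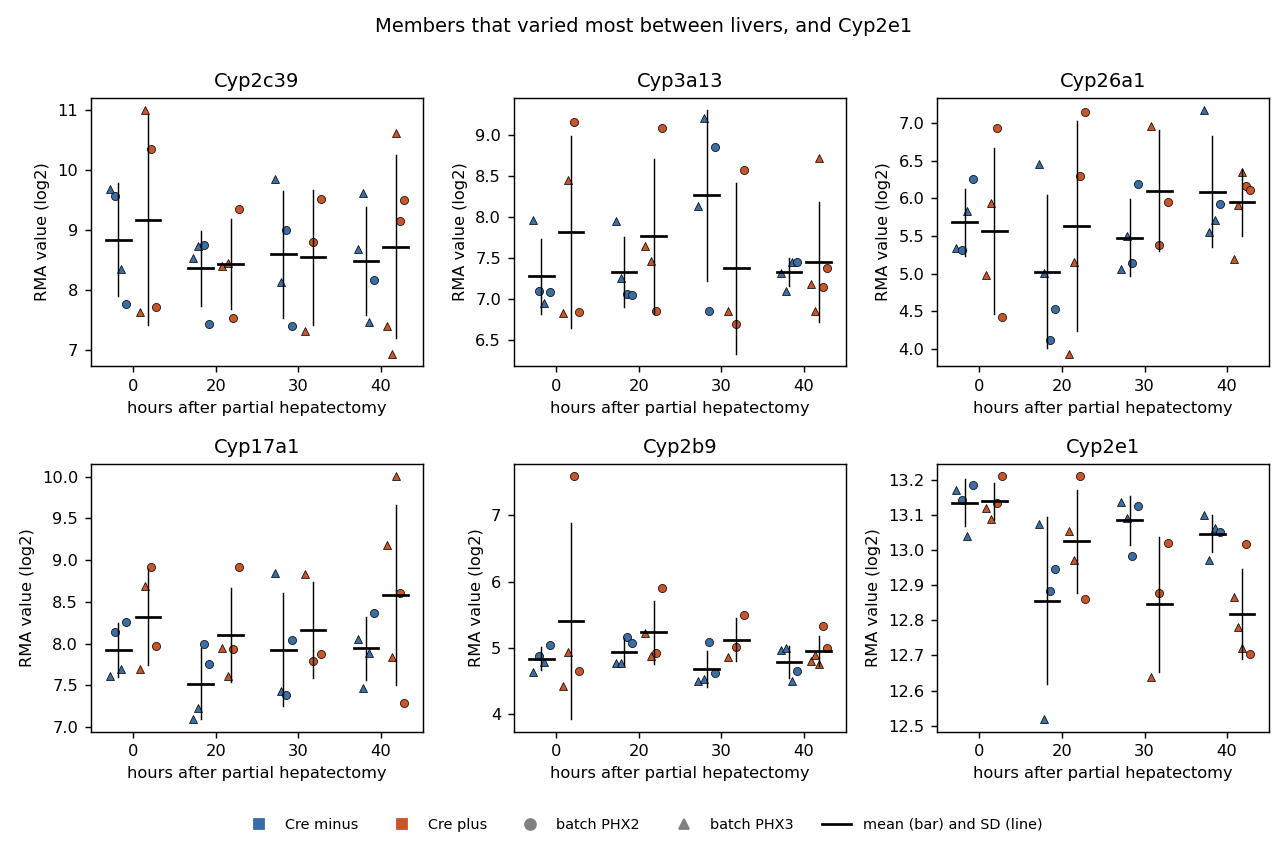
RMA value (log2) against hours after partial hepatectomy for 5 of the most variable P450 genes and for Cyp2e1, with each liver as a point, means as bars and SD as lines. Cyp2c39 spans 6.95 to 10.99, while Cyp2e1 stays within 12.52 to 13.21.

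The deviations of livers from their group and batch means were compared between all 351 pairs of tested members, a comparison chosen after the values were seen. By Pearson's r over 32 arrays, with labels permuted within groups, 4 pairs passed an adjusted p of 0.05. Cyp2c38 and Cyp2c39 deviated together (r = 0.79, permutation p = 8e-05; rho = 0.76, permutation p = 0.00015; adjusted p = 0.0175 for both), and r was 0.73 without the 2 arrays farthest from the median. Probe sets of such close relatives can bind each other's transcripts, so shared binding and shared change cannot be told apart. Cyp17a1 and Cyp2d9 deviated in opposite directions (r = -0.74, permutation p = 0.00015; rho = -0.76, permutation p = 9e-05; adjusted p = 0.0175 and 0.0158), with r = -0.77 without the 2 farthest arrays, -0.64 within PHX2 and -0.82 within PHX3. The first is known as higher in female and the second in male liver, and all these mice were male.

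Cyp2c70 and Cyp2f2 deviated together (r = 0.64, permutation p = 0.00017; rho = 0.67, permutation p = 0.00023; adjusted p = 0.0175 and 0.0202), with r = 0.65 without the 2 farthest arrays. Cyp21a1 and Cyp2e1 did so too, with r = 0.60 (permutation p = 2e-04) and rho = 0.71 (permutation p = 7e-05). The adjusted permutation p was 0.0175 for r and 0.0158 for rho. For this pair r was 0.58 without the 2 farthest arrays and 0.50 without the 3 low-correlation arrays. Transcripts other than Cyp21a1 may bind its probe set (suffix _s_at).

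**Figure D5:**
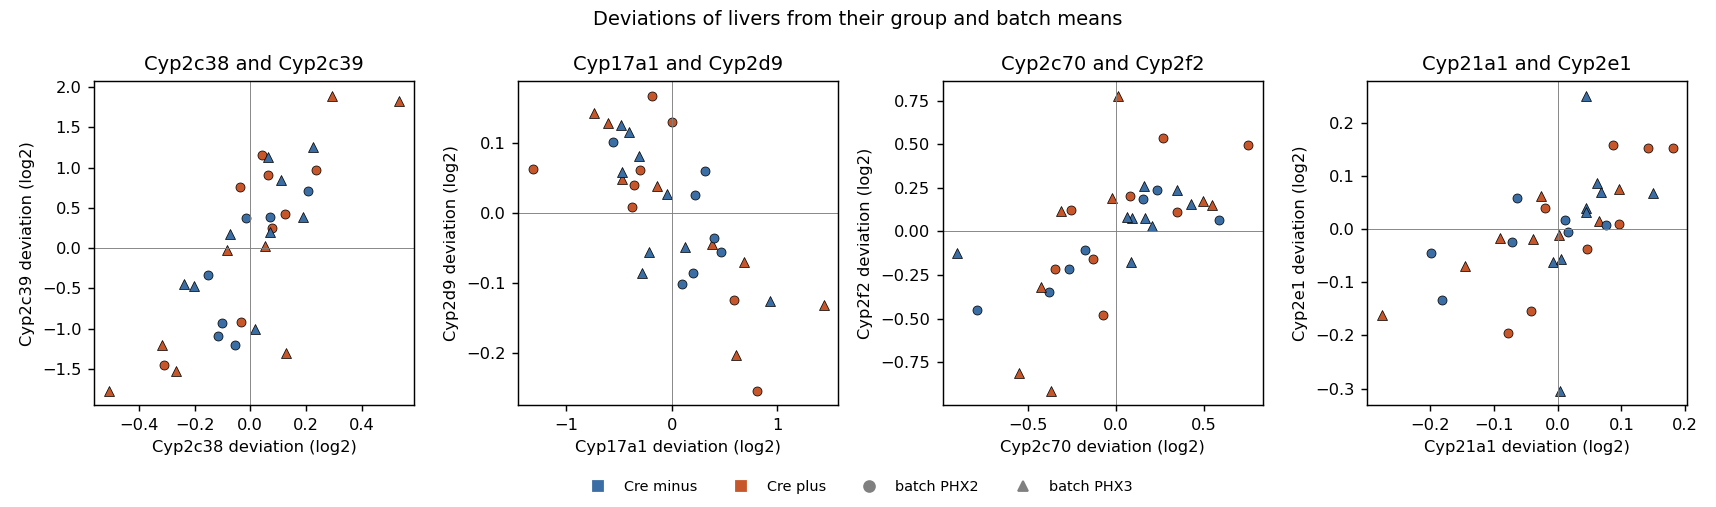
Deviation of each of 32 livers from its group and batch means (log2) in 4 pairs of P450 genes. Points run upward for Cyp2c38 with Cyp2c39 (r = 0.79) and Cyp2c70 with Cyp2f2 (r = 0.64), and downward for Cyp17a1 with Cyp2d9 (r = -0.74).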

How the data were processed

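Total RNA from 32 livers was labelled from 6 ug and hybridised to 1-colour Affymetrix arrays, per the labels' protocols. The deposited values are log2 signals of 12488 probe sets. RMA is the tool named in the submitters' processing notes, without a version, and joint or separate normalization of the batches is not stated there. Base 2 was taken from the range, 2.30 to 14.12, with array medians of 5.88 to 5.99. The number of arrays limits the precision.

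The platform annotation gave 10833 probe sets 1 gene, 396 several and 1193 none, beside 66 controls. Tests covered the 9249 probe sets that exceeded the 30th percentile of their array on 3 or more arrays. The model, from limma 3.58.1 (R 4.3.3; lmFit, then eBayes; 2-sided), had group and batch as terms over all 32 arrays and Benjamini-Hochberg adjustment within each of 13 comparisons. In simulated data for 20 h against 0 h in Cre minus, 92% of changes of 1 and 99% of changes of 2 (log2) were recovered among 9249 probe sets, with 6 false calls. The changed probe sets were drawn at random and the noise was independent between probe sets. Of the 27 tested members 8 lay at or above the 90th percentile of residual SD, so these rates need not hold for them. Members, gene lists and tests were chosen with earlier results of these data known. Named with values were a list of core P450 genes and, in each comparison, the called members with the 6 highest and 6 lowest differences; others are given by range and count. Deviations for the pair correlations were residuals of the same fit, and labels were permuted 100000 times within groups. Promoters came from RefSeq by gene symbol. Alternatives changed scaling, filter, batch term, array weights, probe set, arrays kept, samples fitted and replicate block.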

Additional observations from a re-analysis of the deposited data

Results flagged for a closer look

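In groups of 4 or 5 livers, 189 sets of a gene and a group were checked for a liver standing apart by Dixon's ratio, and 13 held one. Chance flags about 1 in 20 such sets. In Cre minus livers at 0 h, A stood apart with 11.75 for Cyp3a11, below 11.97 to 11.99 in the others, and with 7.96 for Cyp3a13, above the others, which reached 7.10. At 20 h, Cre minus D had 7.44 for Cyp2c39, below 8.53, and 10.67 for Cyp2f2, above 10.22. At 30 h, Cre minus B had 6.96 for Cyp2c29, below 7.46. At 40 h, Cre minus D had 5.43 for Cyp11a1, below 5.75, and C had 10.57 for Cyp2a12, below 10.73.

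In Cre plus livers at 0 h, C had 7.60 for Cyp2b9, above 4.94, and 11.79 for Cyp3a11, below 11.88, while A had 8.10 for Cyp4f13, below 8.32. At 20 h, Cre plus D had 9.51 for Cyp4v3, below 10.23. At 40 h, Cre plus B had 9.48 for Cyp2c38, below 10.11, and C had 8.72 for Cyp3a13, above 7.38. In each case the second value is the nearest of the other livers in the group.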

How the results depend on the processing

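Over 10 alternative settings, 3310 member values stayed on their side of the threshold, 56 fell below it and 53 passed it. Of the values called in the main fit or the alternative, 0 changed direction. For values called in neither, direction was not compared. Leaving out 1 array gave 3348, 99, 9 and 0 in the same order. With array weights the counts of called members were 12 at 20 h and 7 at 30 h in Cre minus, 8 at 20 h and 11 at 30 h in Cre plus, 7 between genotypes at 30 h and 4 for the 30 h interaction. With only the groups compared in the fit they were 11, 1 and 9 at 20, 30 and 40 h in Cre minus, 2 at 20 h and 2 at 40 h in Cre plus, and 0 between genotypes at 40 h. Without a batch term they were 2 at 30 h in Cre minus and 3 at 30 h in Cre plus. Without the 3 low-correlation arrays they were 1 at 30 h in Cre plus and 2 between genotypes at 30 h. With the replicate block they were 3 at 30 h and 3 at 40 h in Cre plus and 0 between genotypes at 40 h. The block ended the calls of Cyp2d26 in Cre minus at 20 h, Cyp2c70 in Cre minus at 30 h, Cyp2d9 in Cre minus at 40 h, Cyp2b10, Cyp2c70, Cyp2d26 and Cyp2f2 in Cre plus at 30 h, Cyp2c29, Cyp2c38, Cyp2e1 and Cyp4f13 in Cre plus at 40 h, and Cyp2d10 between genotypes (0.26, adjusted p = 0.0973). The causes were not tested.

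Replicate letters did not pair the samples: arrays of the same letter deviated with a mean correlation of -0.03 over 105 pairs, 31 of them above 0.1, and arrays of other letters with 0.01 over 342. Leaving out each array in turn gave counts of 5 to 8, 2 to 4 and 3 to 4 at 20, 30 and 40 h in Cre minus, and 0 to 4, 1 to 4 and 2 to 7 in Cre plus. It gave 0 to 1 between genotypes at 30 h and 0 to 1 at 40 h, and 0 between genotypes at 0 and 20 h and for the interactions. The other 111 of 130 counts under alternatives, and 101 of 128 with an array left out, were within 1.5 times the count reported.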

Other observations

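Cyp4a12b, a P450 gene outside the symbol pattern that was on a gene list, had its own probe set. Beyond the gene lists, no search was made for P450 genes outside the pattern. Cyp4a12b, known as higher in male liver, fell in Cre minus livers at 40 h by 1.22 (SE 0.29, adjusted p = 0.0124) and was called in no other comparison. The epoxide hydrolase gene Ephx1, whose product acts on epoxides that P450 enzymes make, was higher in Cre plus livers at all 4 times, by 0.74, 0.60, 0.63 and 0.63 at 0, 20, 30 and 40 h (adjusted p = 0.00836, 0.0312, 0.0446 and 0.00147). The aldehyde dehydrogenase gene Aldh2 was higher in Cre plus at 20 h by 0.50 and at 40 h by 0.46.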
